A study of Mus musculus with 24 samples.

Results

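The MyoD response difference, clone 2 minus wild type, is a contrast of contrasts. It asks whether the change in each gene's RNA after MyoD differs between a LncMyoD knockout clone and its parent line. It uses 16 of the 24 libraries of the series. For each gene it is (KO2 with MyoD minus KO2 without) minus (WT with MyoD minus WT without), with 4 libraries on each of the 4 sides and the plasmid as a block. A positive difference means that the response was higher in KO2.

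The cells were C3H 10T1/2, a mouse embryo fibroblast line. The KO2 libraries with MyoD came from LncMyoD knockout clone 2 given MyoD adenovirus alone (2 libraries) or MyoD adenovirus and LncMyoD plasmid (2 libraries). The KO2 libraries without MyoD came from the same clone untreated (2) or given the plasmid alone (2). The WT libraries with MyoD and without MyoD came from wild type cells under the same treatments, 2 libraries each. LncMyoD is a long noncoding RNA whose gene lies beside Myod1 on chromosome 7. Per the labels, the medium held 10% FBS and was changed to one with 2% HS after transdifferentiation. They do not say which medium the libraries without MyoD had, so whether virus and medium changed together is not given. No group was labelled as given an empty virus or plasmid. KO2 is 1 clone, so what is particular to the clone and what follows from the knockout cannot be told apart. The labels do not say that replicates were separate cultures, so the p-values cover the spread among these libraries alone, which may be technical. In bulk RNA, fewer cells of a type and less RNA per cell cannot be told apart.

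MyoD is a basic helix-loop-helix transcription factor that binds E-boxes and turns fibroblasts into muscle cells. It switches on the factor myogenin and the Mef2 family, which together activate the contractile genes, while the cells leave the division cycle and lose much of their fibroblast program. Immediate early genes, such as Fos and the Egr and Nr4a genes, are transcribed within minutes of growth factor or serum signals through ERK kinase and the factors SRF and CREB. SRF binds the CArG box and CREB binds the cyclic AMP response element.

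Values are scaled TPM. TPM is a transcript's share of a library, and each library was divided by a factor that puts the median gene on 1 level. The factors ran from 2.40 to 3.90 in KO2 and from 0.228 to 0.392 in WT, so levels can be set side by side within a line but only loosely between lines. The libraries of the lines differed in make-up. Ribosomal RNA sequence held 2.68% to 7.89% of TPM in KO2 and 55.6% to 69.2% in WT. Transcripts assembled under a gene's name, the only ones in the main values, held 72.6% to 82.5% of TPM in KO2 and 27.4% to 78.2% in WT. Unnamed transcripts that could be given to genes by exonic overlap held 9.99% to 13.9% in KO2 and 5.88% to 53.9% in WT. Depth was 3.49 to 5.04 gigabases of aligned fragments in KO2 and 4.40 to 5.93 in WT, and the files list no read counts per gene. Mitochondrial transcripts held 9.34% to 14.0% of TPM in KO2 with MyoD and 7.91% to 10.2% in KO2 without, against 2.58% to 3.10% in WT with MyoD and 2.06% to 3.84% in WT without. Between 10416 and 10969 genes reached 1 TPM in KO2 with MyoD and 12568 to 13253 in KO2 without, against 5822 to 6964 in WT with MyoD and 5449 to 6838 in WT without. The part of these differences in the results below was not tested.

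Myod1, measured first as a check of the labels (chromosome 7, 46376474 to 46379099, build mm10), was at 440, 387, 428 and 420 scaled TPM in KO2 with MyoD and at 0.349, 0.258, 0.377 and 0 in KO2 without. It was at 10216, 9866, 10881 and 13548 scaled TPM in WT with MyoD and at 9.71, 8.24, 9.17 and 10.2 in WT without. Every library given the virus stood above every library of its line without it. Reads from the virus and from the cells' own gene cannot be told apart here. The fitted log2 difference of -1.66 ± 0.19 (SE, limma adjusted p = 2.12e-04) rests on KO2 levels near the pseudocount, and with a pseudocount of 0.1 it was 0.27 (adjusted p = 0.841). Unnamed transcripts assembled at the LncMyoD locus summed to 3.47 to 11.9 TPM in the 4 KO2 libraries and to 2.64 to 8.16 TPM in the 4 WT libraries given the plasmid. Among libraries without plasmid the sum was 0 in 3 of the 4 of KO2 and in all 4 of WT, and 1.95 TPM, from a shorter transcript, in KO2 with MyoD alone, replicate 2. It is no check of the knockout, since WT without plasmid was at 0 too.

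Over the 11879 genes with at least 1 scaled TPM in at least 4 libraries, the response to MyoD was higher in KO2 than in WT for 288 genes (2.42%) and lower for 360 genes (3.03%). The test was limma with Benjamini-Hochberg adjustment, called at an adjusted p under 0.05 and a log2 difference of at least 1, on log2(scaled TPM + 1), a scale that understates changes of low genes. MyoD raised 335 genes (2.82%) and lowered 625 (5.26%) in KO2, against 45 raised (0.379%) and 19 lowered (0.160%) in WT. The KO2 counts were 176 raised and 2331 lowered on TPM without scaling. They were 201 and 217 with a pseudocount of 5, and 163 and 489 with values adjusted for transcript length. The WT counts were 24 and 7, 36 and 18, and 45 and 20 in that order. Fitted on the 8 plasmid libraries alone, KO2 had 35 raised and 88 lowered and WT had 46 and 65. The 8 without plasmid gave 170 and 129 in KO2 and 42 and 26 in WT. Log2 values of the 2 replicates of a group correlated at r = 0.83 to 0.85 in WT and 0.90 to 0.94 in KO2. The fit held 1 variance per gene for both lines. The part of this spread in the counts was not tested. Of the 288 genes with a higher response, 154 rose in KO2 without a call in WT, 14 fell in WT without a call in KO2, 3 rose in both lines and 117 were called in neither line alone. Of the 360 with a lower response, 280 fell in KO2 without a call in WT, 25 rose in WT without a call in KO2, 4 rose in both lines and 51 were called in neither. Of the same 360, 152 averaged under 1 scaled TPM in WT without MyoD, and 50 were at 0 in all 4 of those libraries. In such genes a fall in WT could hardly be seen. These numbers were 30 and 17 among the 288 higher genes, and 2906 and 697 among all 11879. Leaving out any 1 of the 4 KO2 libraries without MyoD moved the lower count by over 1.5 times, to 236 and 199 without untreated replicates 1 and 2 and to 214 and 209 without plasmid replicates 1 and 2. With the 8 libraries without plasmid alone 49 were higher and 47 lower, and with the 8 plasmid libraries alone 15 were higher and 27 lower, in fits with 4 residual degrees of freedom. Higher calls were 44.4% of all calls, against 7.52% on TPM without scaling, where the median difference of all genes was -0.43, and 34.2% after quantile normalization.

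**Figure D1:**
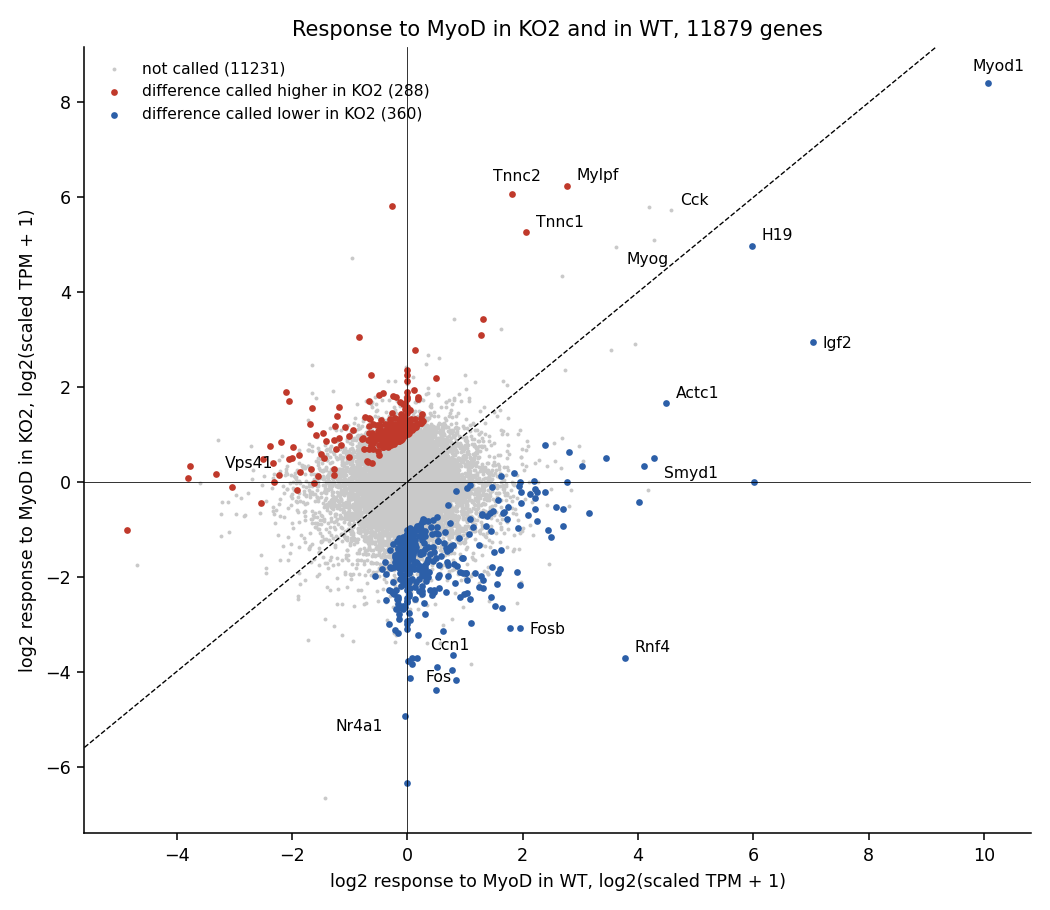
Log2 response to MyoD in KO2 (vertical) against that in WT (horizontal) for all 11879 tested genes on the log2(scaled TPM + 1) scale, with the dashed line marking equal responses. The 288 genes called higher lie above the line, where Mylpf and the troponins Tnnc2 and Tnnc1 stand out, and the 360 called lower lie below it, most of them in a column near a WT response of 0.

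4 stretches of promoter sequence are shown because they carry the motifs named above beside genes whose responses differed. They are the 250 bases before the start of Mylpf, a fast-muscle myosin light chain gene whose response was higher in KO2, and of Egr2, Vcl and Dusp1, genes of an early transcription factor, an adhesion plaque protein and a phosphatase that switches off ERK, whose responses were lower. The sequences are RefSeq's, build GRCm38.p6, written 5′ to 3′, with the motif found in capitals. Egr2 has 5 listed starts, of which the first with a match is shown.
Mylpf: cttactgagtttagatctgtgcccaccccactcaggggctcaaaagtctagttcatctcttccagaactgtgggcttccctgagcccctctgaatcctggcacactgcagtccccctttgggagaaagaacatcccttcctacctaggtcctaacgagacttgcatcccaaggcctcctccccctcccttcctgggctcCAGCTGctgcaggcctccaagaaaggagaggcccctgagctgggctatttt
Egr2: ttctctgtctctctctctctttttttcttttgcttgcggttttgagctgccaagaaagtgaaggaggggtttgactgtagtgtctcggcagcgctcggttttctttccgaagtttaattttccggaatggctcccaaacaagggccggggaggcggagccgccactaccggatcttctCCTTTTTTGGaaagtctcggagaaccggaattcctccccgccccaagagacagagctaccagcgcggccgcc
Vcl: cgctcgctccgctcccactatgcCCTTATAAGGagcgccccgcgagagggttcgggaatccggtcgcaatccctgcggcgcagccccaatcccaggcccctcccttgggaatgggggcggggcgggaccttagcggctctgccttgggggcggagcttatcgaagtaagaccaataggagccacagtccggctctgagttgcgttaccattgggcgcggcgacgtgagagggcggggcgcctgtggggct
Dusp1: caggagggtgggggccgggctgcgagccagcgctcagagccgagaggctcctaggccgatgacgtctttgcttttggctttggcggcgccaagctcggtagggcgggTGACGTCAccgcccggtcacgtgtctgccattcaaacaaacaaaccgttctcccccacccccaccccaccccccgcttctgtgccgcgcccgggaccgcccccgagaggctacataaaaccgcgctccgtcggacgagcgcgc
The Mylpf stretch (chr7:127211358-127211607, plus strand) holds the E-box CAGCTG, which begins 51 bases before the start. The Egr2 stretch (chr10:67537316-67537565, plus strand) holds a CArG box that begins 72 bases before the start, and the Vcl stretch (chr14:20929148-20929397, plus strand) holds one 227 bases before it. The Dusp1 stretch (chr17:26508473-26508722, minus strand) holds the cyclic AMP response element TGACGTCA 143 bases before the start. On either strand, 69.3% of the 27025 genes in the promoter table hold CANNTG in such a stretch, 14.7% hold CAGCTG, which is one form of CANNTG, 1.62% hold a CArG box and 1.77% hold TGACGTCA. Of the 9 muscle genes called higher, 6 matched the table, and Ckm, Cox8b and Mylpf held CAGCTG. Of the 12 immediate early genes called lower, 8 matched. Among them 3 (Fos, Ier3 and Junb) held CAGCTG too, 2 (Egr2 and Zfp36) held a CArG box and 1 (Btg2) held TGACGTCA. A match describes letters and no binding.

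Among the muscle genes the 2 lines answered unequally rather than in 1 direction. Of 61 tested members of 7 muscle lists, 9 had a higher response in KO2 and 6 a lower one, with a median log2 difference of 0.11, against a median of 0.00 over all tested genes. Over all tested genes 2.42% were called higher and 3.03% lower, the shares to set beside each list count below. In KO2 23 of the 61 rose with MyoD and 2 fell, against 13 that rose in WT. Of all genes 2.82% rose and 5.26% fell in KO2, and 0.379% rose in WT. The higher 9 were Mylpf, 3 troponin genes, 3 energy genes, Mymx and Rapsn, and the lower 6 were Myod1, Smyd1, Actc1, Ldb3, Itga7 and Vcam1.

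Mylpf (chromosome 7, 127208890 to 127214298) was at 98.9, 51.5, 82.0 and 74.8 scaled TPM in KO2 with MyoD, and at 3.24, 5.82, 6.49 and 8.97 in WT with MyoD. It was listed at 0 in all 8 libraries without MyoD of either line. The groups with MyoD did not overlap, and the log2 difference was 3.47 ± 0.39 (SE, limma adjusted p = 2.12e-04). It was 3.75 without the plasmid and 3.20 with it. For genes listed at 0 without MyoD, such as Mylpf, the size of a difference depends on the pseudocount, and no fold is given.

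Tnnc2, the calcium-binding troponin C of fast muscle (chromosome 2, 164777161 to 164779967), was at 87.1, 40.5, 68.1 and 78.4 scaled TPM in KO2 with MyoD. In WT with MyoD it was at 0, 3.96, 4.79 and 4.41, and in both lines it was listed at 0 without MyoD. The lowest KO2 library with MyoD stood above all of WT, and the log2 difference was 4.24 ± 0.63 (SE, limma adjusted p = 0.00142). Tnnc2 shares its position with Ube2c on the other strand, and reads of such pairs cannot be told apart in these libraries. The same limit holds for other genes described here, among them Tnnc1 (with Nisch), Smyd1 (with Krcc1), Actc1 (with A530058N18Rik), Ckm (with A930016O22Rik), Itga7 (with Mettl7b), Mest (with Copg2), Dusp1 (with Ergic1), Vcl (with Ap3m1), Tap1 (with Psmb9), Cox6c (with Vps13b), Ndufa2 (with Tmco6), Nrd1 (with Osbpl9) and Pitrm1 (with Pfkp). Tnni2, the inhibitory subunit of fast troponin, was at 4.50, 6.05, 5.09 and 8.42 scaled TPM in KO2 with MyoD and at 0, 0, 0.182 and 0.220 in WT with MyoD, a log2 difference of 2.65 ± 0.27 (SE, limma adjusted p = 1.03e-04). The Tnnc2 call held in the 31 alternatives in which it was tested. Tnni2 reached 1 scaled TPM only in the 4 KO2 libraries with MyoD, so it passed the filter through them alone. Leaving out any 1 of them left it untested, so its calls in 25 alternatives are no support.

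Tnnc1, the troponin C of slow and heart muscle, was at 51.7, 23.8, 30.9 and 50.5 scaled TPM in KO2 with MyoD and at 0.430, 3.73, 5.12 and 6.22 in WT with MyoD, and at 0 without it. Its log2 difference of 3.20 ± 0.59 (SE, limma adjusted p = 0.0056) was 1.34 (adjusted p = 0.104) once unnamed transcripts were given to genes by exonic overlap. Of the 8 tested troponin and tropomyosin genes these 3 were higher (median log2 difference 0.55) and the other 5, Tpm1, Tpm2, Tpm3, Tnnt2 and Tnni1, gave differences of 0.38 to 0.57 that did not pass. Of 4 tested myosin list members, Mylpf alone was called, and the alkali light chain gene Myl1 gave 1.61 ± 0.48 (SE, limma adjusted p = 0.0625).

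Of 9 muscle energy genes tested, 3 had a higher response in KO2 and none a lower one (median 1.17), against 2.42% of all genes called higher. Ckm, muscle creatine kinase, was at 3.97, 1.93, 2.23 and 1.75 scaled TPM in KO2 with MyoD and was listed at 0 in the 12 other libraries, a log2 difference of 1.75 ± 0.26 (SE, limma adjusted p = 0.00131). Ckm passed the filter through KO2 with MyoD alone, so its call and its separation from WT are no support. Cox8b, a muscle form of a cytochrome oxidase subunit, was at 12.8, 4.15, 12.1 and 13.7 scaled TPM in KO2 with MyoD and at 2.75, 1.14, 1.62 and 0.799 in WT with MyoD (log2 difference 2.13 ± 0.47 SE, limma adjusted p = 0.0163), and at 0 without MyoD. The lowest KO2 value of Ckm and of Cox8b with MyoD stood above the highest WT value. Ldhb, a lactate dehydrogenase subunit, averaged 149 scaled TPM in KO2 with MyoD and 67.7 in KO2 without, against 15.4 in WT with MyoD and 16.7 in WT without, and its difference was 1.24 ± 0.23 (SE, limma adjusted p = 0.00652). Of the 6 not called, Eno3 and Pgam2 gave 1.17 and 1.60 and the other 4 gave values from -1.43 to -0.13. Of the 3 calls 1 was left with values adjusted for transcript length, where Cox8b gave 1.72 and Ldhb 0.86, and Ldhb was not called without scaling or after quantile normalization either.

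Several muscle genes did not pass the test of the difference. Myog, the gene of myogenin, was at 36.0, 18.3, 30.02 and 41.3 scaled TPM in KO2 with MyoD and at 14.4, 10.1, 12.5 and 8.96 in WT with MyoD, and at 0 in all 8 libraries without MyoD. The groups with MyoD did not overlap, but the log2 difference of 1.34 ± 0.38 (SE) missed the threshold (limma adjusted p = 0.0523), and 9 of 33 alternatives called it. Acta1, skeletal actin, was at 89.1, 41.8, 56.4 and 86.0 scaled TPM in KO2 with MyoD and at 1.19, 1.15, 0.743 and 0.692 in KO2 without. It was at 12.2, 16.4, 19.6 and 28.8 scaled TPM in WT with MyoD and at 0 in WT without, a log2 difference of 0.83 ± 0.41 (SE, limma adjusted p = 0.275) that was -1.52 with a pseudocount of 0.1.

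Cck, a peptide hormone gene that rose with MyoD in both lines, gave 1.15 ± 0.47 (SE, limma adjusted p = 0.17), and Mymk, a membrane protein gene needed for myoblast fusion, gave -1.03 ± 0.53 (SE, adjusted p = 0.294). Mef2c, a partner of MyoD, averaged 1.37 scaled TPM in KO2 with MyoD and 0.807 in KO2 without, against 0.333 in WT with MyoD and 0.0325 in WT without, with a difference of 0.02 ± 0.40 (SE, limma adjusted p = 0.987). Mymx, the second fusion protein gene, was at 4.28, 1.66, 3.08 and 3.45 scaled TPM in KO2 with MyoD and at 0, 0.0566, 0.690 and 0 in KO2 without. It was listed at 0 in all 8 WT libraries, and its log2 difference was 1.79 ± 0.32 (SE, limma adjusted p = 0.0051). Mymx passed the filter through KO2 with MyoD alone, so its call is no support. Rapsn, which clusters acetylcholine receptors at the neuromuscular junction, was likewise listed at 0 in all WT libraries and gave 1.58 ± 0.39 (SE, limma adjusted p = 0.0275), called in 18 of 30 alternatives and the only call among 10 genes of excitation-contraction coupling and the junction (median -0.45, and 1.46 without scaling).

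Other muscle genes responded less in KO2. Actc1, cardiac actin (chromosome 2, 114047282 to 114053548), was at 1.41, 4.56, 0 and 6.36 scaled TPM in KO2 with MyoD and at 24.5, 27.7, 18.7 and 16.4 in WT with MyoD, and was listed at 0 in all 8 libraries without MyoD. Smyd1, a muscle histone methyltransferase gene, was at 1.43, 0, 0.616 and 0 scaled TPM in KO2 with MyoD and at 13.5, 11.4, 19.6 and 37.1 in WT with MyoD, and at 0 without it. In both genes all 4 WT libraries with MyoD stood above all of KO2. The log2 differences were -2.83 ± 0.67 for Actc1 (SE, limma adjusted p = 0.0221) and -3.78 ± 0.50 for Smyd1 (SE, adjusted p = 7.36e-04). Without scaling neither was called, with Actc1 at -0.47 and Smyd1 at -1.86, so the separation of the lines rests on the scaled values. Actc1 was not called with a pseudocount of 0.1 or with no filter on low values either, and Smyd1 was not called with unnamed transcripts added.

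Itga7, the laminin-binding integrin of muscle, averaged 0.726 scaled TPM in KO2 with MyoD and 0.0889 in KO2 without, against 11.7 in WT with MyoD and 0.0969 in WT without, a log2 difference of -2.93 ± 0.50 (SE, limma adjusted p = 0.00331). It was not called without scaling (-1.39) or with unnamed transcripts added (-0.92). Ldb3, a Z-disc scaffold gene, gave -2.02 ± 0.51 (SE, limma adjusted p = 0.0306), and 1.03 with unnamed transcripts added, and was called in 16 of 31 alternatives. Vcam1, an adhesion molecule of the fusion list, fell in KO2 to an average of 40.9 scaled TPM with MyoD, against 115 without, while WT averaged 33.2 with MyoD and 32.3 without. Its difference was -1.50 ± 0.23 (SE, limma adjusted p = 0.00157).

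**Figure D2:**
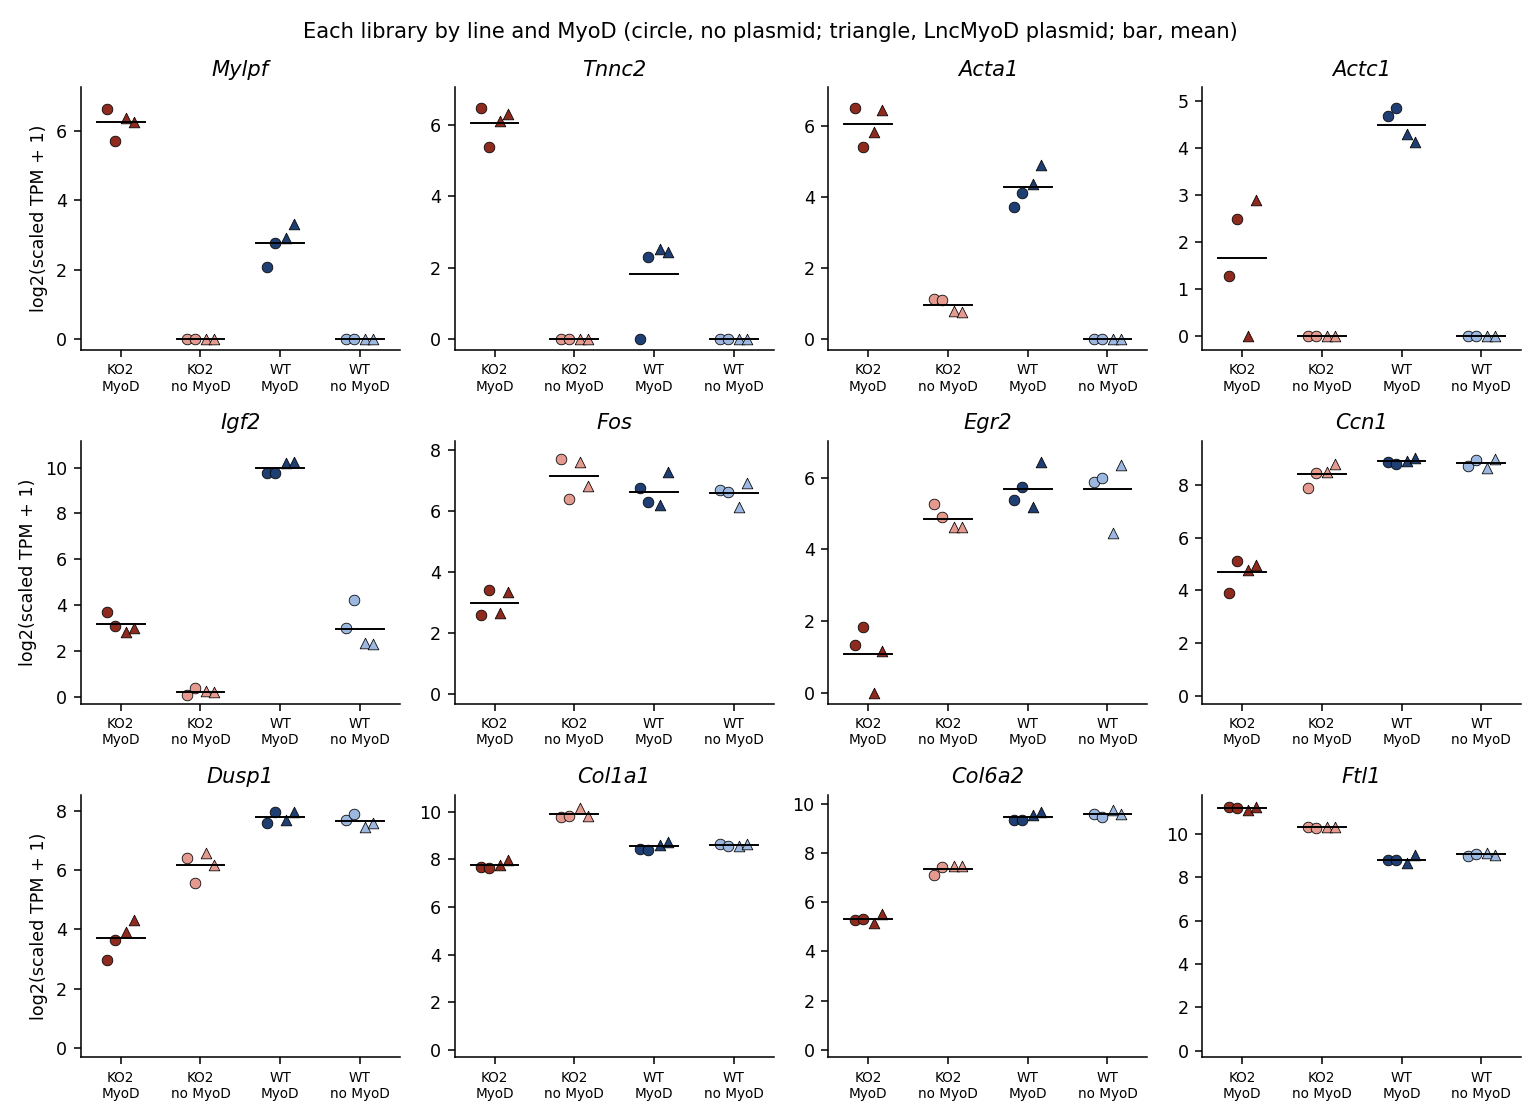
Log2(scaled TPM + 1) of 12 genes in each of the 16 libraries, with KO2 with and without MyoD left of WT with and without MyoD, circles for libraries without plasmid, triangles for libraries with it and bars for the means of 4. Mylpf and Tnnc2 with MyoD stand higher in KO2 than in WT and Actc1 and Igf2 stand lower, while Fos, Egr2, Ccn1, Dusp1, Col1a1 and Col6a2 are lower with MyoD in all 4 KO2 libraries and overlap between the WT groups.

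Of the imprinted genes, which are expressed from 1 parental copy, Igf2 and H19 rose with MyoD in both lines. Igf2, a fetal growth factor (chromosome 7, 142650766 to 142666816), was at 11.8, 7.55, 6.14 and 7.08 scaled TPM in KO2 with MyoD and at 0.0375, 0.2995, 0.181 and 0.150 in KO2 without. It was at 872, 859, 1186 and 1198 scaled TPM in WT with MyoD and at 6.93, 17.7, 4.07 and 3.98 in WT without. The groups did not overlap in either line, and the ratio of means was 48.8 in KO2 and 126 in WT. The log2 difference was -4.09 ± 0.47 (SE, limma adjusted p = 2.49e-04), and -2.22 with a pseudocount of 0.1, where it was not called. Igf2 overlaps the antisense gene Igf2os, and without strand their reads cannot be told apart.

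H19, a noncoding RNA beside Igf2, was at 39.4, 27.0, 26.6 and 33.9 scaled TPM in KO2 with MyoD, with 1 KO2 library without MyoD at 0.137 and the other 3 at 0. It averaged 76.4 scaled TPM in WT with MyoD and 0.235 in WT without. Its difference of -1.003 ± 0.28 (SE, limma adjusted p = 0.0472) was called in 8 of 33 alternatives and turned positive in 4. Mest, which encodes a hydrolase-like protein and is expressed from the paternal copy, was at 94.0, 103, 91.0 and 118 scaled TPM in KO2 with MyoD and at 205, 248, 199 and 241 in KO2 without. In WT it was at 298, 277, 270 and 273 with MyoD and 268, 269, 265 and 314 without. The KO2 groups did not overlap and the WT groups did, and the log2 difference was -1.13 ± 0.15 (SE, limma adjusted p = 7.45e-04). Meg3, a maternally expressed noncoding RNA, was listed at 0 in all WT libraries, and its difference was -1.54 ± 0.39 (SE, limma adjusted p = 0.0321), called in 15 of 32 alternatives. These were the 4 calls among 12 tested imprinted genes (median -0.62).

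Many immediate early genes had a lower response. Of 24 tested, 12 had a lower response in KO2 and none a higher one, with a median log2 difference of -1.66, against 0.00 over all genes. In KO2 16 of the 24 fell with MyoD, while limma called 0 of the 24 in WT, where 1 had an unadjusted p under 0.05. Such calls made up 3.03% of all genes for the lower difference and 5.26% for the fall in KO2.

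Fos, an AP-1 subunit (chromosome 12, 85473890 to 85477273), was at 4.995, 9.58, 5.38 and 9.13 scaled TPM in KO2 with MyoD and at 208, 82.7, 193 and 111 in KO2 without. In WT it was at 107, 77.3, 71.5 and 154 with MyoD and at 101, 97.7, 68.4 and 120 without. All 4 KO2 libraries with MyoD stood below the 4 of KO2 without, and the WT groups overlapped. The log2 difference was -4.17 ± 0.47 (SE, limma adjusted p = 2.12e-04), and -3.93 without and -4.41 with the plasmid.

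Egr1, a zinc finger factor, was at 9.89, 12.4, 12.7 and 12.4 scaled TPM in KO2 with MyoD and at 66.4, 79.0, 88.0 and 91.6 in KO2 without. In WT it was at 1935, 1730, 1252 and 2234 with MyoD and at 1717, 1853, 1524 and 2357 without, and the WT groups overlapped. Its log2 difference was -2.60 ± 0.25 (SE, limma adjusted p = 4.03e-05). Egr2, whose CArG box is printed above, was at 1.51, 2.54, 0 and 1.23 scaled TPM in KO2 with MyoD and at 37.7, 29.0, 23.8 and 23.8 in KO2 without, while WT averaged 53.6 with MyoD and 55.7 without (log2 difference -3.80 ± 0.58 SE, limma adjusted p = 0.00157).

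Nr4a1, an orphan nuclear receptor gene, was at 0.105, 3.05, 8.37 and 2.11 scaled TPM in KO2 with MyoD and at 85.4, 104, 104 and 117 in KO2 without. It was at 898, 828, 526 and 1263 in WT with MyoD and at 893, 878, 562 and 1236 in WT without, and the log2 difference was -4.89 ± 0.66 (SE, limma adjusted p = 7.36e-04). Fosb, another AP-1 subunit, gave -5.03 ± 1.03 (SE, limma adjusted p = 0.00994). The other 7 calls were Btg2, Zfp36, Myc, Egr3, Ier3, Junb and Ier2, with differences from -2.28 to -1.52. Among the 12 not called, Jun gave -0.96 (limma adjusted p = 0.0635) and Srf, the gene of the factor that binds the CArG box, gave 0.11.

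Genes that answer the same signals moved with them in part. Dusp1, the phosphatase with the printed cyclic AMP element, was at 6.77, 11.5, 14.1 and 19.03 scaled TPM in KO2 with MyoD and at 83.0, 46.4, 93.6 and 71.1 in KO2 without. It was at 192, 247, 203 and 244 in WT with MyoD and at 206, 236, 174 and 192 in WT without, a log2 difference of -2.60 ± 0.35 (SE, limma adjusted p = 7.36e-04). The KO2 groups stood apart and the WT groups overlapped. Dusp6, the ERK-specific phosphatase, gave -3.10 ± 0.67 (SE, limma adjusted p = 0.0143). Dusp1 and Dusp6 were the 2 calls among 11 ERK feedback genes (median -0.63), against 3.03% of all genes called lower.

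Ccn1, a matricellular protein gene and a target of the coactivator YAP (chromosome 3, 145646976 to 145649981), was at 14.0, 33.4, 26.5 and 29.96 scaled TPM in KO2 with MyoD and at 235, 351, 356 and 444 in KO2 without. WT cells had 473, 440, 482 and 525 with MyoD and 417, 496, 402 and 502 without. All 4 KO2 libraries with MyoD were below the other 12, and the log2 difference was -3.80 ± 0.30 (SE, limma adjusted p = 1.08e-05), a call held in all 33 alternatives. F3, tissue factor, gave -2.31 ± 0.52 (SE, limma adjusted p = 0.0173). Of 12 YAP targets 2 were called lower (median -0.83), against 3.03% of all genes.

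Of 11 smooth muscle cytoskeleton genes, which SRF also drives, 2 were lower and the median was 0.05, against -0.48 without scaling. Vcl, vinculin, averaged 12.5 scaled TPM in KO2 with MyoD and 46.3 in KO2 without, against 424 in WT with MyoD and 466 in WT without, a log2 difference of -1.68 ± 0.26 (SE, limma adjusted p = 0.00171). The actin crosslinker gene Flna gave -3.10 ± 0.76 (SE, limma adjusted p = 0.0261), and the smooth muscle actin gene Acta2 gave 0.49 (adjusted p = 0.118).

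**Figure D3:**
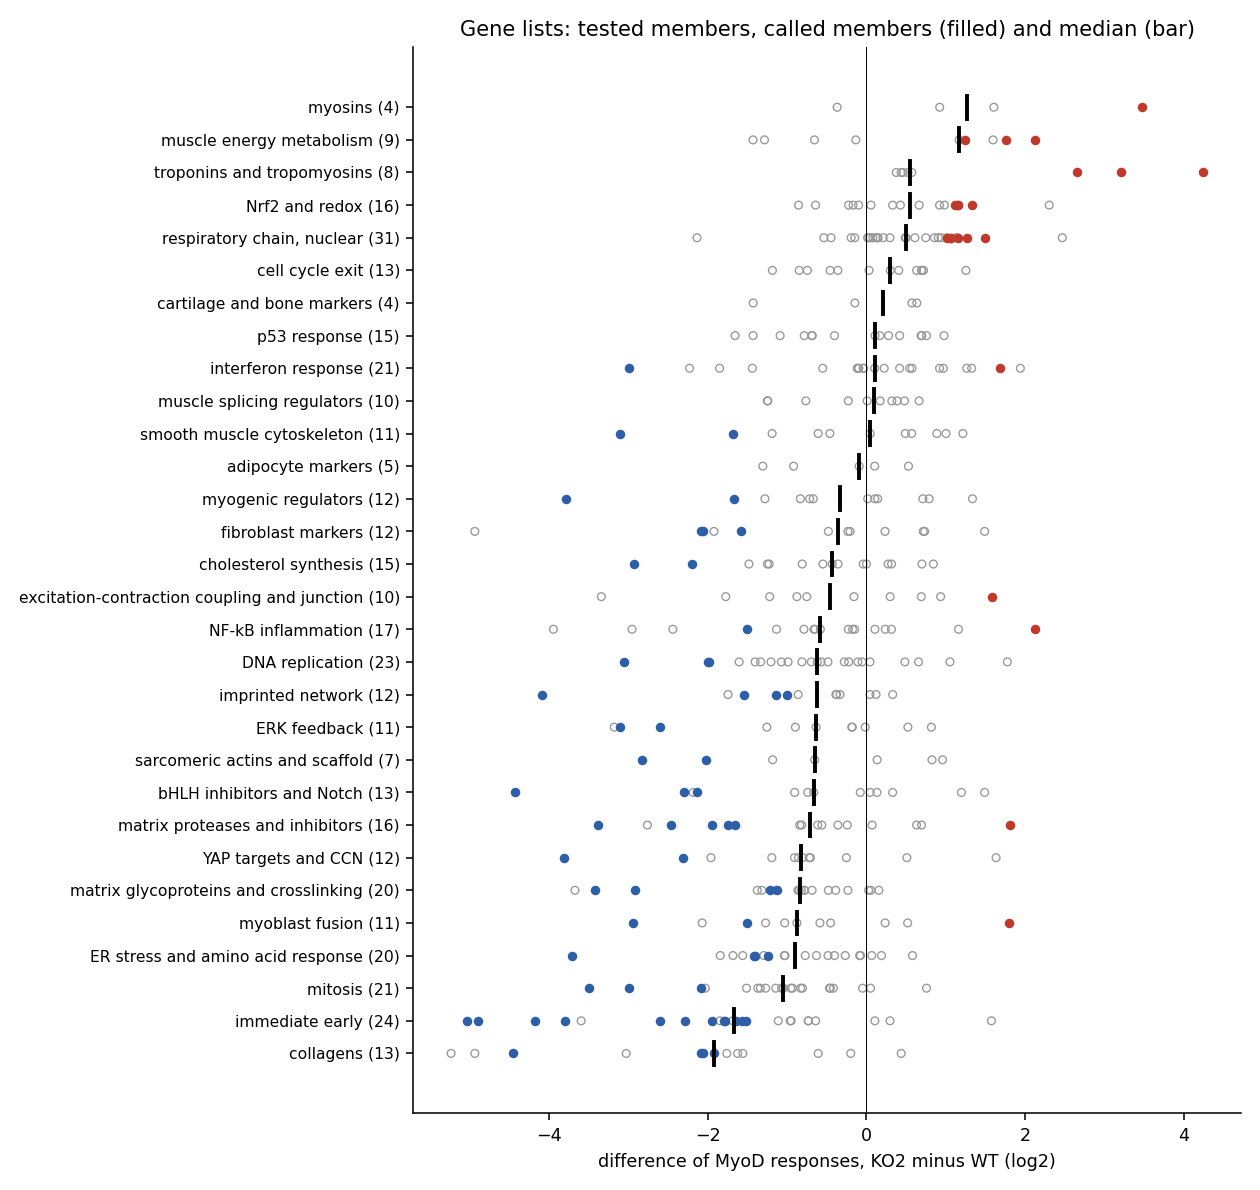
Log2 difference of MyoD responses, KO2 minus WT, for each tested member of every gene list with at least 4 tested members, with the number tested in brackets, filled points for called members and a black bar for the median. Collagens and immediate early genes have the lowest medians, at -1.92 and -1.66, and myosins and muscle energy metabolism the highest, at 1.26 and 1.17.

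Of 13 collagen genes tested, 7 fell with MyoD in KO2, and 4 had a lower response in KO2 than in WT (median log2 difference -1.92). Over all genes 5.26% fell in KO2 and 3.03% had a lower response. Limma called 0 of the 13 in WT, and 0 had an unadjusted p under 0.05 there. The median length of the longest transcript was 5930 nt in this list and 2848 nt over all tested genes.

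Col1a1, a chain of type I collagen (chromosome 11, 94936224 to 94953042), was at 207, 197, 219 and 254 scaled TPM in KO2 with MyoD and at 872, 906, 1158 and 901 in KO2 without. WT cells had 347, 333, 393 and 427 with MyoD and 400, 377, 377 and 404 without. The KO2 groups did not overlap, the WT groups did, and the log2 difference was -2.06 ± 0.13 (SE, limma adjusted p = 1.06e-06). Col6a2, a chain of type VI collagen, was at 37.4, 39.0, 34.9 and 44.7 scaled TPM in KO2 with MyoD and at 136, 172, 174 and 175 in KO2 without, while WT averaged 713 with MyoD and 773 without (log2 difference -1.92 ± 0.14 SE, limma adjusted p = 5.61e-06). Both calls held in all 33 alternatives, the length adjustment among them. Col3a1, type III collagen, gave -2.09 ± 0.38 (SE, limma adjusted p = 0.00501), and Col11a1 gave -4.45 ± 0.62 (SE, adjusted p = 9.25e-04). With unnamed transcripts added Col11a1 gave -1.07 and was not called. It averaged 30.5 scaled TPM in KO2 without MyoD and 0.119 in WT without, a level at which a fall in WT could hardly be seen.

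Other matrix genes divided. Of 20 matrix glycoprotein and crosslinking genes 4 were lower (median -0.83), against 3.03% of all genes. Thbs1, a thrombospondin, gave -3.42 ± 0.69 (SE, limma adjusted p = 0.00953), Eln, elastin, gave -2.91, the crosslinking oxidase Lox -1.21 and Postn, periostin, -1.13. Lox was called in 19 of 33 alternatives. Eln averaged 8.55 scaled TPM in KO2 without MyoD and 0.534 in WT without, where a fall could hardly be seen. Bgn and Sparc, abundant matrix genes that did not pass, gave 0.05 and 0.16. Of 16 matrix proteases and inhibitors 5 were lower and 1 was higher (median -0.71), against 3.03% and 2.42% of all genes. Adamts1, a secreted protease, averaged 59.3 scaled TPM in KO2 with MyoD and 225 in KO2 without, against 240 in WT with MyoD and 236 in WT without (log2 difference -1.94 ± 0.17 SE, limma adjusted p = 2.56e-05). Adamts2, which trims procollagen, gave -3.38 and the collagenase Mmp13 gave -2.46, called in 13 of 30 alternatives. For Mmp13 the log2 response was 2.25 in WT, a called rise, and -0.20 in KO2, which was not called. Adamts2 averaged 10.3 scaled TPM in KO2 without MyoD and 0.000389 in WT without, where a fall could hardly be seen.

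Mmp3, stromelysin, went against its list. It was at 112, 126, 117 and 135 scaled TPM in KO2 with MyoD and at 26.4, 35.6, 34.96 and 58.7 in KO2 without, and in WT at 33.7, 37.5, 44.9 and 41.6 with MyoD and 46.8, 30.5, 50.8 and 46.9 without. Its log2 difference was 1.81 ± 0.26 (SE, limma adjusted p = 0.00103).

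Of 12 fibroblast markers, all present in the files, 3 were lower (median -0.36), against 3.03% of all genes. These were Col1a1, Col3a1 and Pdgfra, a growth factor receptor gene, at -1.58 ± 0.22 (SE, limma adjusted p = 8.99e-04). The summed level of the 12 markers was 2318 to 2741 scaled TPM in KO2 with MyoD and 3237 to 4747 in KO2 without. In WT it was 1680 to 2384 with MyoD and 1833 to 2190 without. Of the 61 markers of heart, fat, cartilage and bone, macrophage, neuron, epithelium and endothelium, 14 were tested and limma called 0, with 3 at an unadjusted p under 0.05. The sums of the cartilage and bone markers were 40.4 to 52.1 in KO2 with MyoD and 29.1 to 37.1 in KO2 without, against 315 to 444 in WT with MyoD and 391 to 506 in WT without. The sums of the adipocyte markers were 16.8 to 21.2 in KO2 with MyoD and 22.9 to 29.4 in KO2 without, against 2.68 to 9.28 in WT with MyoD and 2.75 to 14.3 in WT without, and those of the other lists were under 21 in every library. The defining markers Plin1, Acan, Adgre1, Rbfox3, Epcam, Cdh5 and Nppa were listed at 0 in all 16 libraries.

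Of 21 mitosis genes 3 had a lower response in KO2 and none a higher one (median -1.05), against 3.03% of all genes, and 7 of the 21 fell with MyoD in KO2, against 5.26%. Without scaling 11 of the 21 were called lower. The 3 were the topoisomerase gene Top2a at -3.49 ± 0.70 (SE, limma adjusted p = 0.00932), the cyclin gene Ccnb2 at -2.99 and the spindle motor gene Kif11 at -2.08. Top2a averaged 1.01 scaled TPM in KO2 with MyoD and 6.24 in KO2 without, against 7.34 in WT with MyoD and 1.18 in WT without. Its log2 response was -1.92 in KO2 and 1.57 in WT, where it was not called. In WT with MyoD it was at 14.0 and 11.6 without plasmid and at 2.16 and 1.57 with it. Ccnb2 and Kif11 averaged 9.70 and 3.39 in KO2 without MyoD, against 0 and 0.0368 in WT without. At such WT levels a fall in WT could hardly be seen. Kif11 passed the filter through KO2 without MyoD alone, so its call is no support. Of 23 DNA replication genes 3 were lower (median -0.62), the helicase subunits Mcm5 at -3.06 and Mcm3 at -1.98 and the factor E2f1 at -1.995, and 1 of the 23 fell in KO2. Mcm3 was called in 16 and E2f1 in 17 of 33 alternatives. Mki67, a marker of dividing cells, averaged 0.867 scaled TPM in KO2 without MyoD and 3.38 in WT without, was listed at 0 in all 8 libraries with MyoD, and gave 0.76 ± 0.90 (SE, limma adjusted p = 0.702). Limma called 0 of 13 genes of cell cycle exit and 0 of 15 p53 response genes, with 3 and 5 at an unadjusted p under 0.05. Cdkn1a, the CDK inhibitor p21 in both lists, gave 0.70 (limma adjusted p = 0.00545), under the size asked for.

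Of 13 genes of bHLH inhibitors and the Notch pathway 3 were lower (median -0.66), against 3.03% of all genes. Hes1, a Notch target that represses myogenic genes, was at 7.83, 4.04, 3.63 and 1.99 scaled TPM in KO2 with MyoD and at 23.4, 108, 96.6 and 121 in KO2 without, and in WT at 3.03, 2.49, 0.807 and 3.07 with MyoD and 0.227, 0, 2.53 and 4.72 without. Its log2 difference was -4.43 ± 0.85 (SE, limma adjusted p = 0.00722). The repressor gene Bhlhe40 gave -2.30 (limma adjusted p = 0.0218). The receptor gene Notch1 gave -2.13 (limma adjusted p = 0.0436), with overlapping KO2 groups and a call in 8 of 32 alternatives. Id1, which binds the partners of MyoD, gave 0.33 ± 0.26 (SE, limma adjusted p = 0.514).

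Of 20 genes of the ER stress and amino acid response 4 were lower (median -0.90), against 3.03% of all genes. Hspa5, the chaperone BiP, was at 63.6, 60.4, 63.1 and 97.8 scaled TPM in KO2 with MyoD and at 128, 199, 198 and 267 in KO2 without, while WT averaged 20.4 with MyoD and 20.7 without (log2 difference -1.41 ± 0.27 SE, limma adjusted p = 0.00652). The KO2 groups did not overlap and the WT groups did. The cochaperone gene Dnajb9 gave -3.71, the disulfide isomerase Pdia4 -1.40 and Herpud1, of ER-associated degradation, -1.23, which was called in 19 of 33 alternatives.

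Inflammation and interferon genes had calls both ways. Saa3, an acute phase protein gene, was at 19.6, 21.1, 24.3 and 21.9 scaled TPM in KO2 with MyoD, at 3.11, 3.69, 4.96 and 5.38 in KO2 without and at 0 in all WT libraries (log2 difference 2.12 ± 0.31 SE, limma adjusted p = 0.00138). Saa3 and Vcam1 were the calls among 17 NF-kB genes (median -0.58). Ifit1, an antiviral gene, was at 35.8, 35.1, 23.8 and 43.4 in KO2 with MyoD and at 6.48, 9.29, 4.07 and 7.90 in KO2 without, while WT averaged 9.49 with MyoD and 6.74 without (1.68 ± 0.40 SE, limma adjusted p = 0.0237). The peptide transporter gene Tap1 gave -2.99, and these were the 2 calls among 21 interferon genes (median 0.10). Limma called 0 of 10 muscle splicing regulators, with 1 at an unadjusted p under 0.05.

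Genes of 2 metabolic lists had calls in the higher direction alone. Of 31 nuclear-encoded respiratory chain genes 6 were higher (median 0.50), against 2.42% of all genes. Cox6c, a cytochrome oxidase subunit gene, was at 336, 307, 304 and 337 scaled TPM in KO2 with MyoD and at 156, 151, 137 and 135 in KO2 without. In WT it was at 14.9, 11.7, 8.09 and 20.5 with MyoD and at 15.3, 20.2, 16.7 and 15.9 without, and the log2 difference was 1.49 ± 0.29 (SE, limma adjusted p = 0.00735). The complex I subunits Ndufa2, Ndufa1, Ndufa4 and Ndufs6 and the complex II subunit Sdhd gave 1.02 to 1.27, with Sdhd called in 14 of 33 alternatives.

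Of 16 Nrf2 and redox genes 4 were higher (median 0.55), against 2.42% of all genes. Ftl1, the ferritin light chain, was at 2399, 2345, 2182 and 2404 scaled TPM in KO2 with MyoD and at 1262, 1254, 1282 and 1268 in KO2 without, while WT was at 445, 445, 408 and 517 with MyoD and at 508, 534, 561 and 528 without. Its log2 difference was 1.11 ± 0.10 (SE, limma adjusted p = 3.66e-05). The peroxiredoxin Prdx1 gave 1.33 ± 0.17, the quinone reductase Nqo1 1.15 ± 0.15 and the metallothionein Mt1 1.15 ± 0.25 (SE, limma adjusted p = 6.77e-04, 6.77e-04 and 0.0147 in that order). The higher calls of both metabolic lists depended on the scaling, with 0 respiratory chain and 0 Nrf2 genes called higher without scaling and 1 and 0 after quantile normalization. With values adjusted for transcript length 2 and 1 were called.

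Transcript length moved with the difference over all genes. The longest annotated transcript had a median of 1128.5 nt in the 288 genes with a higher response and 3758.5 nt in the 360 with a lower one. Over 5 groups of tested genes from the shortest to the longest transcripts, the median difference was 0.44, 0.17, -0.06, -0.17 and -0.39. The median response in KO2 ran from 0.41 in the shortest group to -0.37 in the longest, and in WT it stayed between -0.02 and 0.00. In the shortest group 6.69% of genes were called higher and 1.22% lower, and in the longest 0.42% were called higher and 4.63% lower. With each library adjusted for transcript length, 124 genes were higher and 245 lower, of which 107 and 226 were among the calls above, and 10 immediate early genes and 4 collagens were called lower. The respiratory chain list had a median length of 1410 nt, the muscle energy list 1854 nt and the immediate early list 2679.5 nt.

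**Figure D4:**
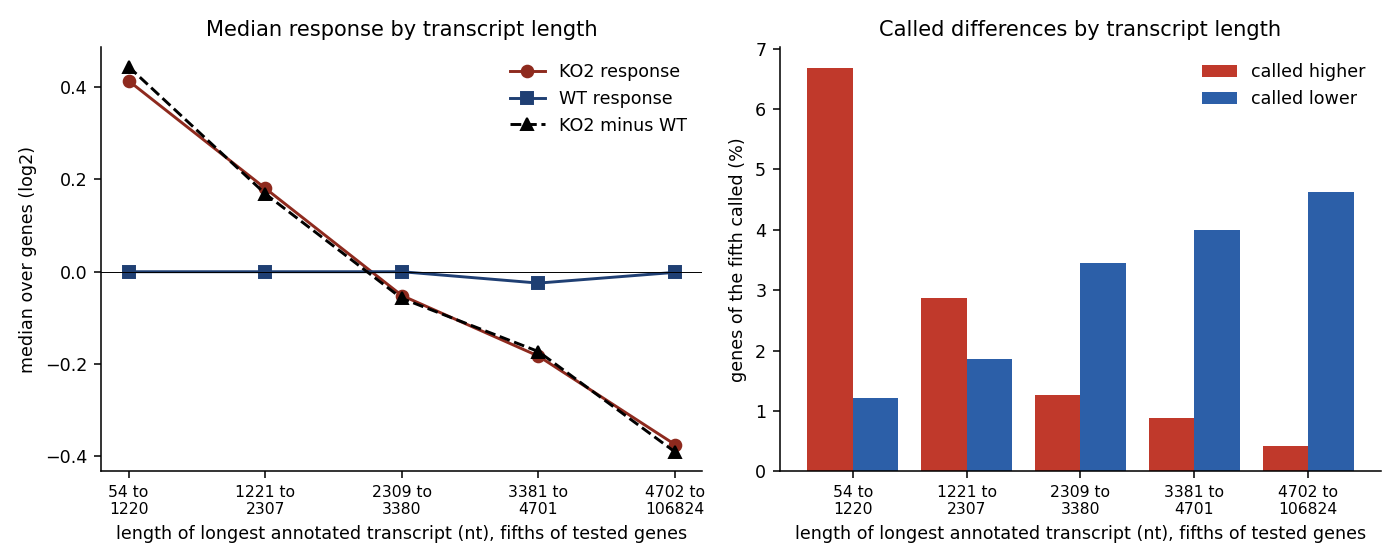
Left, the median log2 response to MyoD in KO2 (circles) and in WT (squares) and their difference (triangles) in 5 groups of tested genes by length of the longest annotated transcript, and right, the percent of each group called higher or lower. The KO2 median runs from 0.41 to -0.37 and the WT median stays near 0.

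Among the largest differences, 5 turned in sign with how transcripts were assigned to genes. Psmc1, a proteasome subunit gene, was at 74.4, 73.4, 50.4 and 84.0 scaled TPM in KO2 with MyoD and at 53.5, 55.4, 57.4 and 53.6 in KO2 without. In WT it was at 0.0353, 5.34, 0.0182 and 1.42 with MyoD and at 24.6, 29.2, 19.2 and 33.8 without. The log2 difference of 4.09 ± 0.63 (SE, limma adjusted p = 0.00159) went with overlapping KO2 groups and separate WT groups, and it was -1.01 (adjusted p = 0.195) once unnamed transcripts were added by exonic overlap. With the same step Fkbp15 turned to -1.04 (limma adjusted p = 0.0197), a call in the other direction, against 3.85. Vps41, of endosome transport, turned to -0.27, against 3.49.

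Among the largest lower values, Rnf4, a ubiquitin ligase gene, gave -7.49 ± 1.91 (SE, limma adjusted p = 0.0312), and 0.01 with that step, and Pitrm1, a mitochondrial protease gene, gave -4.44, and 0.28 with that step. Capn2 and Slc39a1, a calpain and a zinc transporter gene, gave -5.02 and -4.89, with calls in 10 of 30 and 12 of 33 alternatives. The remaining names of the rule, Capns1 (a calpain subunit), Nrd1 (a protease), Commd6 and Pts at 3.90, 3.88, 3.76 and 3.21, and March6 (a ubiquitin ligase) and Glg1 at -4.84 and -4.74, were all called at limma adjusted p from 0.0015 to 0.0216. Of these Nrd1 gave 0.01 and Glg1 gave -0.87 with unnamed transcripts added, and neither was called. Capn2 and Glg1 averaged 50.3 and 25.2 scaled TPM in KO2 without MyoD, against 0.262 and 0 in WT without. At such WT levels a fall in WT could hardly be seen.

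Set beside the other clone, the same contrast was 154 genes higher (1.33%) and 154 lower (1.33%) for KO2 minus KO1 among 11573 tested. For KO1 minus WT limma called 0 of 7059 genes higher (0%) and 2 lower (0.0283%), with 439 at an unadjusted p under 0.05 in both directions together. The 3 contrasts share libraries, so their values are given side by side and not as support for each other. In make-up the KO1 libraries were nearer to WT than to KO2. Ribosomal RNA sequence held 36.8% to 70.0% of TPM in KO1, and 4273 to 5759 genes reached 1 TPM. The part of this in the 3 contrasts was not tested. Fos gave -4.17 for KO2 minus WT, -3.98 for KO2 minus KO1 and -0.17 for KO1 minus WT. Ccn1 gave -3.80, -3.44 and -0.37 in that order, and Col1a1 gave -2.06, -2.26 and 0.18.

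Myog gave 1.34 for KO2 minus WT, 3.93 for KO2 minus KO1 and -1.44 for KO1 minus WT, and Acta1 gave 0.83, 4.18 and -2.02. Of these the KO2 minus KO1 values passed (limma adjusted p = 0.0238 for Myog and 0.013 for Acta1) and the KO1 minus WT values did not (adjusted p = 0.688 and 0.466 in that order). Igf2 gave -4.09, -1.60 and -2.48, of which only the first passed (adjusted p = 0.0525 and 0.093 for the others). Smyd1 gave -3.78 for KO2 minus WT and -2.54 for KO1 minus WT (limma adjusted p = 0.018), 1 of the 2 calls of that contrast, and did not pass the filter for KO2 minus KO1.

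**Figure D5:**
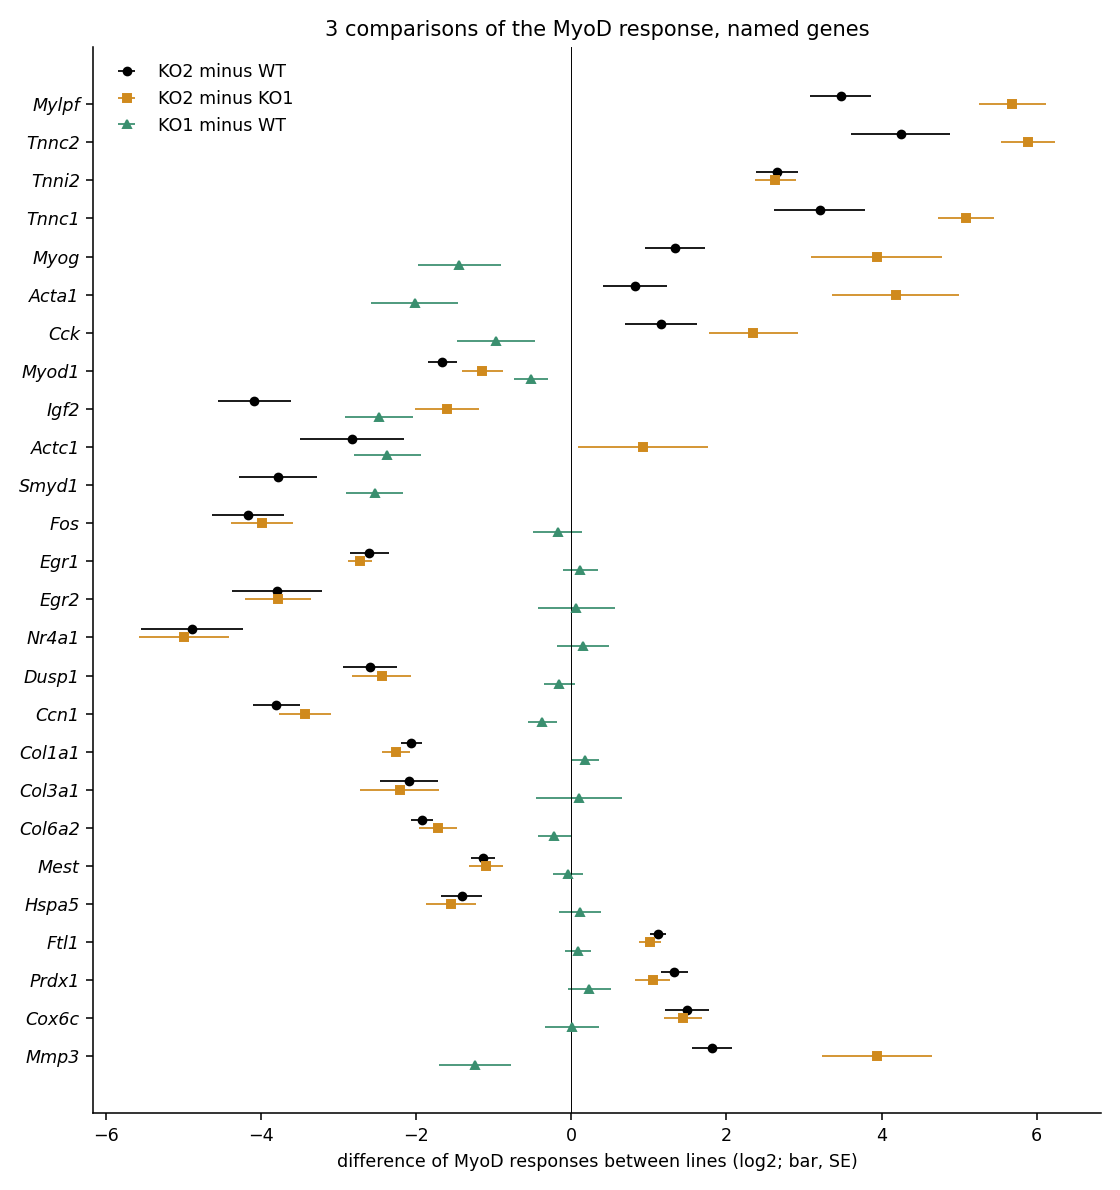
Difference of MyoD responses in log2 with its SE for 26 named genes, as KO2 minus WT (circles), KO2 minus KO1 (squares) and KO1 minus WT (triangles), with a symbol missing where the gene did not pass the filter of that comparison. Fos, Ccn1 and Col1a1 lie near 0 for KO1 minus WT, at -0.17, -0.37 and 0.18, and Igf2 and Smyd1 lie below it, at -2.48 and -2.54.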

How the data were processed

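RNA-seq libraries of C3H 10T1/2 lines were made with a low-input kit for full-length cDNA, which keeps no record of strand. The deposited files list assembled transcripts with TPM, FPKM and coverage values that the authors made with StringTie 2.1.2 and the GENCODE M21 annotation as guide, per the file headers. HISAT2 2.1.0, StringTie 1.3.3, Trimmomatic 0.36, SAMtools 1.3 and bcl2fastq 2.19 are listed in the submitters' processing notes. The files list no read counts. Counts estimated from coverage, transcript length and read length were not made, and no count test was run.

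From these files, TPM was summed per annotated gene and each of the 16 libraries was divided by its median-of-ratios factor. Genes with at least 1 scaled TPM in at least 4 libraries entered limma 3.58.1 in R 4.3.3 (lmFit, eBayes with a mean-variance trend) on log2(scaled TPM + 1), with line, MyoD, their interaction and the plasmid as a block, which left 11 residual degrees of freedom. Tests were 2-sided, adjusted by Benjamini-Hochberg over all tested genes, and called at 0.05 with a log2 size of at least 1. The limma fit and call rule were tested on simulated log2 values with known differences. Summing, scaling, the filter and the pseudocount were not part of that test. Clone 1 entered only the values set beside the result.

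The comparison, its members and the 35 gene lists were chosen with earlier results of these data known. Named genes were called genes with a mean of at least 5 scaled TPM in 1 of the 4 line and MyoD groups and the same sign with and without plasmid: the 10 largest in each direction, the 6 largest in each direction detected in WT, and up to 4 per list. Some genes that were not called are given beside them. Alternatives changed the scaling, unit, pseudocount, filter, assignment of unnamed transcripts, model and libraries. The adjustments for transcript length, and for length with GC content, were chosen after seeing the data. The result of 1 list is not reported here.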

Additional observations from a re-analysis of the deposited data

Results flagged for a closer look

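The test of the difference itself called 288 genes higher and 360 lower in KO2 than in WT. The difference also varied with the plasmid (with plasmid minus without, log2) for Snrpe at 3.75, H2-T-ps at 4.56, Cdon at 7.53, Abhd15 at 4.53 and Rap1b at 6.03, none of which was a called difference over all 16 libraries. A shorter unnamed transcript at the LncMyoD locus was assembled at 1.95 TPM in KO2 MyoD replicate 2, which was given no plasmid.

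Single libraries stood far from the other 3 of their group in 27 of 280 gene and group combinations and in 2 of 20 library measures, where chance gives about 1 in 20. All values are scaled TPM unless another unit is named. In KO2 MyoD replicate 2, Commd6 was at 18.0, Slc39a1 at 47.4, Cox8b at 4.15, Thbs1 at 0.000857, Pdia4 at 10.2 and Tap1 at 0.134. In KO2 MyoD replicate 1, Egr1 was at 9.89. In KO2 with MyoD and plasmid, replicate 1 had Pts at 26.4, Rnf4 at 28.4 and Capn2 at 33.8, and replicate 2 had Col3a1 at 246 and Hspa5 at 97.8. In KO2 without treatment, replicate 1 had Rnf4 at 12.5, Fosb at 6.09, Hes1 at 23.4, Col6a2 at 136 and 72.6% of TPM on named genes, and replicate 2 had Vps41 at 36.9. In KO2 with plasmid alone, replicate 1 had Col1a1 at 1158 and replicate 2 had 3.65 aligned gigabases.

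In WT with MyoD, replicate 1 had Tnnc2 at 0 and replicate 2 had Col3a1 at 84.7. In WT with MyoD and plasmid, replicate 1 had Thbs1 at 289, and replicate 2 had Fkbp15 at 5.78, Glg1 at 7.68, Ccnb2 at 5.36 and Hspa5 at 25.7. In WT without MyoD, Mmp3 was at 30.5 in untreated replicate 2 and Mest at 314 in plasmid replicate 2.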

How the results depend on the processing

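The main counts were 288 higher and 360 lower. They moved by over 1.5 times to 91 and 1119 on TPM without scaling, to 232 lower with a pseudocount of 5, to 181 and 187 with no filter on low values, to 182 higher with all 24 libraries in 1 model, to 49 and 47 in libraries without plasmid, to 15 and 27 in libraries with plasmid, and to 124 and 129 higher after adjustment for length and for length with GC content. Leaving out 1 library at a time gave 192 to 324 higher and 199 to 338 lower. Like counts could hold unlike genes. With unnamed transcripts added 360 were higher and 331 lower. Of the 646 main calls tested there, 375 were still called and 604 kept their sign. After quantile normalization 417 of 641 were still called. Taken over all tested genes, the deviations of same-numbered libraries were uncorrelated (28 pairs, r from -0.0377 to 0.0324). Single genes need not follow this. In WT with plasmid, replicates 1 and 2 had Nr4a1 at 526 and 1263 with MyoD and at 562 and 1236 without. Pairing was not tested gene by gene, and the main fit holds no pairs. With a replicate block 266 were higher and 339 lower, of which 261 and 331 were main calls. Signs turned without scaling for H19 (1.68), Mymk (1.54), Id1 (-0.11) and Mki67 (-0.67), and after quantile normalization for H19 (0.031) and Id1 (-0.035). With a pseudocount of 0.1 they turned for Myod1 (0.27), H19 (0.084), Acta1 (-1.52) and Mef2c (-0.66). With unnamed transcripts added they turned for Psmc1 (-1.01), Fkbp15 (-1.04), Vps41 (-0.27), Rnf4 (0.0092), Pitrm1 (0.28), Ldb3 (1.03), H19 (0.17), Mki67 (-0.99) and Mef2c (-1.72). After adjustment Id1 gave -0.11 for length and -0.0568 for length with GC content, and leaving out 1 library gave Mef2c -0.13 to 0.25. The causes were not tested.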
